A study of Mus musculus with 36 samples.

Results

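Adipose progenitor and fibroblast genes were followed through the epididymal white adipose tissue (eWAT) of 12 groups of mice. The 10 genes, *Pdgfra*, *Pdgfrb*, *Dpp4*, *Pi16*, *Icam1*, *Ly6a*, *Cd34*, *Cd55*, *F3* and *Clec11a*, were taken by symbol from the 24750 genes of the table of normalized values, and each had 1 row. All 10 passed the filter on low values (at least 1 normalized CPM in at least 3 libraries) and were above 0 in every library. CPM is a read count that the authors scaled with edgeR to a normalized library size, so the libraries sum to 799716 to 1208061 CPM.

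White fat is built and renewed by fibroblast-like stromal cells that carry the platelet-derived growth factor receptor PDGFRA. Among these cells, interstitial progenitors at the rim of the fat lobule carry DPP4, PI16 and CD55, committed preadipocytes carry ICAM1, and a further population carries CD142, the product of *F3*, and has been described as holding back fat cell formation. LY6A (also called SCA-1) and CD34 are surface proteins of progenitor cells and of vessels, PDGFRB is the receptor typical of pericytes and of many stromal cells, and *Clec11a* encodes osteolectin, a growth factor secreted by stromal cells.

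RNA was sequenced from the eWAT of male C57BL/6 mice, either wild type (WT) or homozygous CCL19-KI, in which *Ccl19* had been inserted into the *Adipoq* locus so that the adiponectin promoter of mature adipocytes drives the chemokine. The WT mice came from their own matings and were not littermates of the CCL19-KI mice. From 6 weeks of age the mice received a normal diet (ND), a 40% high-fat diet (HFD) or a 60% HFD for 10 weeks, and in ligatured groups a silk thread was tied around upper molars at 14 weeks of age to induce periodontitis and left for 2 weeks until collection at 16 weeks. Genotype, diet and ligature gave 12 groups of 3 libraries each, and all mice were perfused with saline before the pads were taken.

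The 36 libraries held 11962228 to 21581595 reads (median 15573273), so that 1 read was worth 0.0472 to 0.0834 CPM and 3 reads, the limit that a count of 0 allows, 0.142 to 0.250 CPM. *Ccl19*, the inserted gene, lay between 0.507 and 4.51 CPM in 17 of the 18 libraries labelled WT and between 5.57 and 34.6 CPM in 17 of the 18 labelled CCL19-KI. The library labelled WT ND unligatured replicate 2 stood at 19.2 CPM and the library labelled CCL19-KI 60% HFD unligatured replicate 3 at 0.687 CPM. *Gm2564*, a near copy of *Ccl19*, was at 41.9 CPM in the former, against at most 0.160 in the other libraries labelled WT, and listed at 0 in the latter, against at least 11.6 in the others labelled CCL19-KI. These 2 libraries go against their labels, so counts and calls of the 10 genes with all libraries are repeated without them. Sums and calls of the marker lists are given with them only. All 9 adipocyte markers were above 0 in every library, with a summed level of 6680 to 32959 CPM, as were all 14 pan-fibroblast markers (6872 to 18676 CPM). Transcripts of other organs varied widely: 8 epididymal epithelium markers summed to 0.0669 to 12158 CPM, with 5 libraries at 1000 CPM or more, and 10 hepatocyte markers to 129 to 47413 CPM, with 8 libraries at 30000 CPM or more.

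All 10 genes were readily measured in the fat pads, and per kilobase of exon *Ly6a* was the most abundant and *Clec11a* the least. Over the 36 libraries the level of *Ly6a* was 48.8 ± 15.2 CPM per kilobase (mean ± SD), followed by *Dpp4* at 26.2 ± 8.61, *Cd34* at 20.4 ± 6.93, *Cd55* at 14.7 ± 5.46, *Pi16* at 12.7 ± 6.50, *Pdgfra* at 12.1 ± 5.11, *F3* at 10.5 ± 2.77, *Pdgfrb* at 8.03 ± 2.24, *Icam1* at 3.35 ± 0.951 and *Clec11a* at 2.61 ± 1.23 CPM per kilobase. Neighbours in this order kept it in 26 to 35 of 36 libraries, except that *Pi16* exceeded *Pdgfra* in 16 libraries and *Pdgfra* exceeded *F3* in 21. *Pi16* and *Pdgfra* thus did not differ beyond their spread. In bulk tissue, fewer cells of a type and less RNA per cell cannot be told apart.

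The receptors of platelet-derived growth factor were both present in every group. *Pdgfra* (ENSMUSG00000029231, GRCm38 chr5:75152292-75198215, plus strand), the receptor shared by fat cell progenitors, had a lowest, median and highest value of 51.5, 109.9 and 265 CPM over the 36 libraries, and its group means ran from 69.4 ± 18.0 CPM (SD, n = 3) in the unligatured WT group on a 60% HFD to 153 ± 81.0 in the ligatured WT group on a 40% HFD. *Pdgfrb* (ENSMUSG00000024620) reached 20.8, 43.5 and 74.5 CPM at its lowest, median and highest, and its group means ran from 36.4 ± 9.82 in the unligatured WT group on a 60% HFD to 64.3 ± 9.37 in the ligatured CCL19-KI group on a 60% HFD. Both receptors had the same lowest group, and for *Pdgfrb* its 3 libraries lay below the 3 of the highest group.

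The 3 genes of interstitial progenitors differed in how their levels were spread. *Dpp4* (ENSMUSG00000035000, chr2:62330073-62412231, minus strand), a dipeptidyl peptidase of the cell surface, ranged over 87.1, 157 and 356 CPM (lowest, median and highest). It had the largest share of its log2 variance between groups among the 10 genes, 60.8%. Means of 3 libraries differ through spread alone, so part of every such share needs no difference between groups. *Pi16* (ENSMUSG00000024011, chr17:29317680-29330593, plus strand), a secreted or membrane-bound peptidase inhibitor, ranged over 30.6, 68.0 and 214 CPM, and its share between groups was the smallest of the 10, 22.5%. *Cd55* (ENSMUSG00000026399, chr1:130439027-130462744, minus strand), an inhibitor of complement on the cell surface, ranged over 32.6, 70.5 and 133 CPM. The *Cd55* value may be shared with its near copy *Cd55b*, and *Ly6a* belongs to a family of similar genes, so both are uncertain to that degree.

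The surface genes of progenitors and vessels had their highest and lowest group means in CCL19-KI mice, but WT groups came close. Means of ligatured WT groups reached 71.5 ± 35.2 CPM for *Ly6a* (60% HFD) and 210 ± 44.0 CPM for *Cd34* (ND). Those of unligatured WT mice under a 60% HFD were 48.9 ± 12.4 and 121 ± 15.1 CPM. *Ly6a* (ENSMUSG00000075602, chr15:74994877-74998031, minus strand) ranged over 25.7, 57.7 and 94.2 CPM, with group means from 44.1 ± 13.1 in the unligatured CCL19-KI group on an ND to 75.7 ± 14.5 in the unligatured CCL19-KI group on a 60% HFD. *Cd34* (ENSMUSG00000016494, chr1:194938819-194961279, plus strand), a sialomucin, ranged over 57.3, 139 and 258 CPM, with group means from 112 ± 16.8 in the ligatured CCL19-KI group on a 60% HFD to 223 ± 26.3 in the ligatured CCL19-KI group on an ND. The 3 libraries of the highest *Cd34* group lay above the 3 of the lowest, and so did those of *Ly6a*, by a small margin (59.6 CPM in the library that goes against its label, against 59.0 CPM).

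The remaining genes were lower. *Icam1* (ENSMUSG00000037405, chr9:21015985-21028817, plus strand), an adhesion molecule of preadipocytes, endothelium and leukocytes, ranged over 8.42, 13.3 and 24.8 CPM. *F3* (ENSMUSG00000028128, chr3:121723537-121735048, plus strand), tissue factor, the trigger of coagulation, ranged over 11.9, 26.8 and 43.9 CPM, and its group means ran from 20.6 ± 4.80 in the unligatured WT group on a 60% HFD to 33.9 ± 3.47 in the unligatured WT group on an ND. *Clec11a* (ENSMUSG00000004473, chr7:44302687-44306902, minus strand) ranged over 3.13, 6.96 and 20.2 CPM. The RNA of genes on the opposite strand that overlap *Dpp4*, *Pi16*, *Icam1*, *Cd34* and *Cd55* averaged 0.120 to 1.14 CPM, and the counting is not stated to use strand.

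The median SD of the 10 genes was larger within groups than that of all genes. The SD of the log2 value within groups had a median of 0.466, against 0.318 for all 17852 genes tested, and the share of variance between groups a median of 37.7%, against 47.3%.

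**Figure D1:**
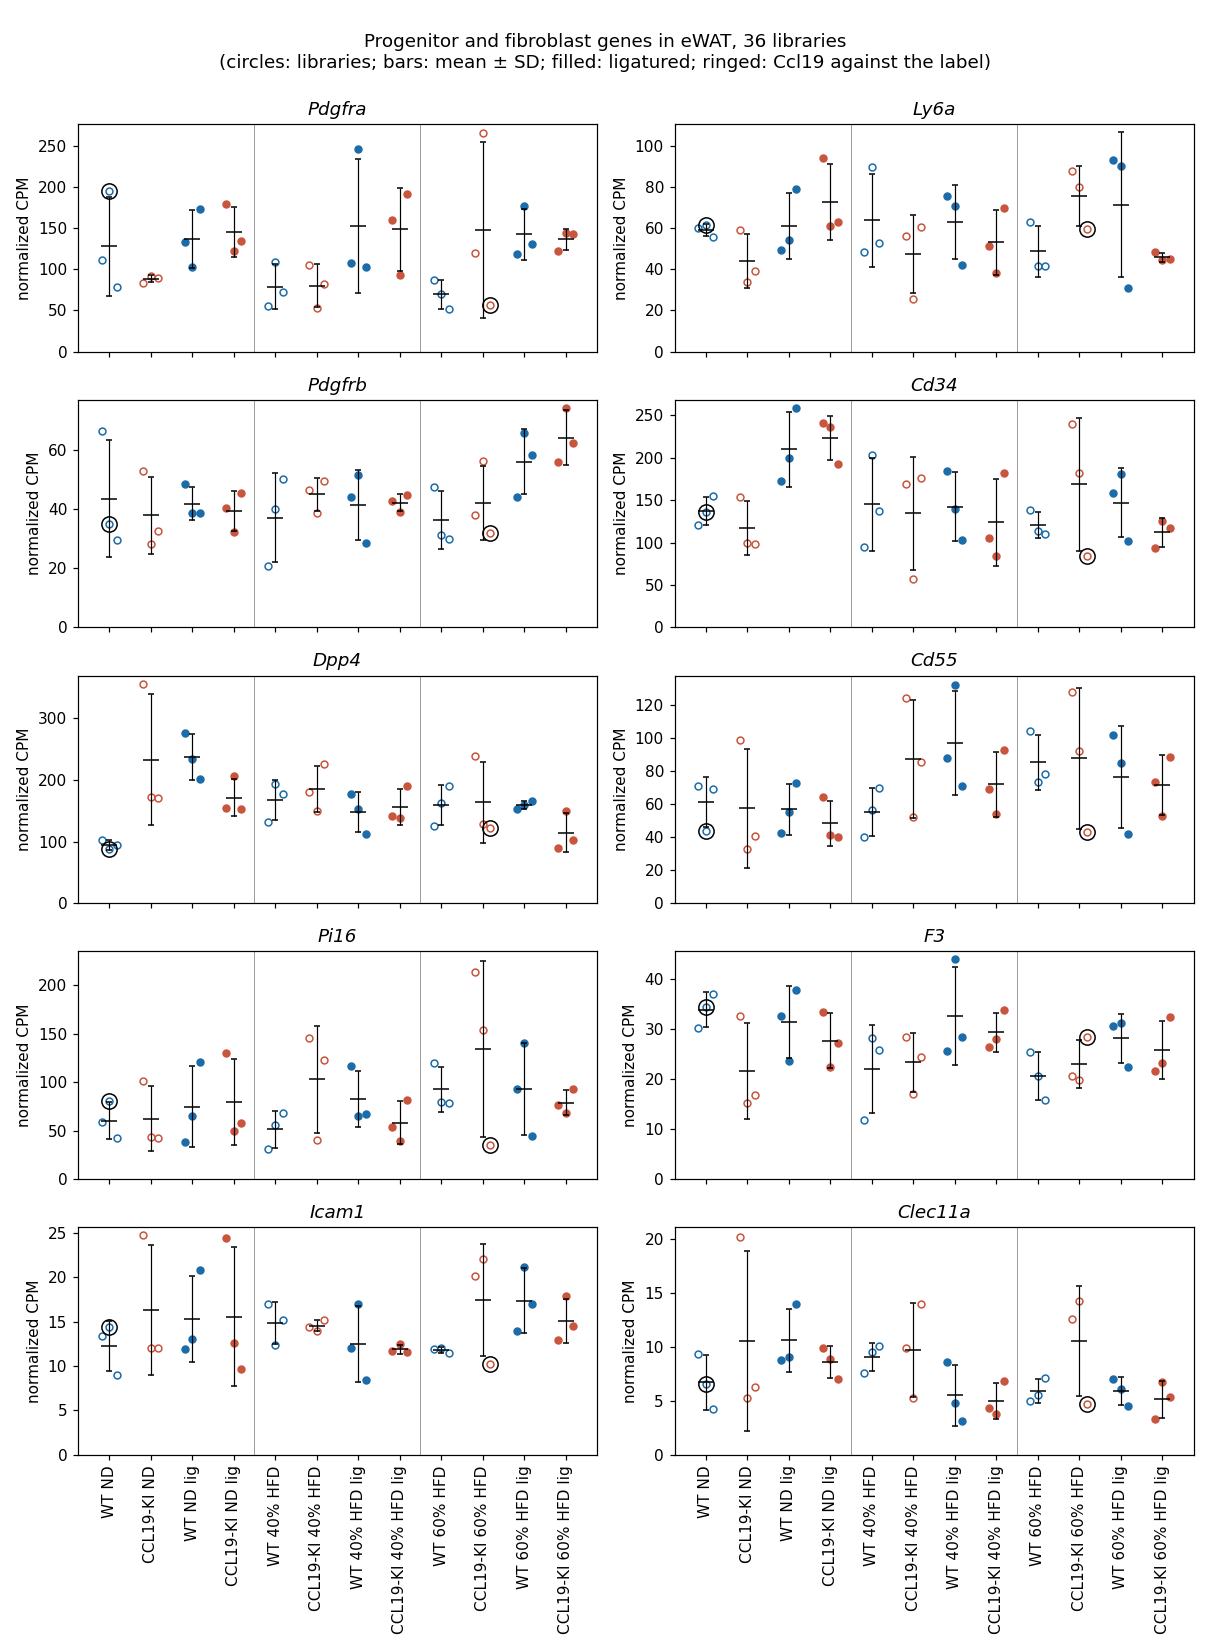
Normalized CPM of each of the 10 genes (y axis, linear from 0) in every library (circles) of the 12 groups (x axis), with bars at the mean ± SD of 3 libraries, WT in blue, CCL19-KI in red and ligatured groups filled. Rings mark the 2 libraries whose *Ccl19* went against their label. *Dpp4* is lowest in unligatured WT mice under an ND, at 87.1 to 103 CPM, and its highest library, at 356 CPM, is in unligatured CCL19-KI mice under an ND.

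Diet, genotype and ligature were each tested over the other factors with limma on log2(CPM + 1), with p-values adjusted over all 17852 genes and a call at an adjusted p below 0.05. None of the 10 genes passed in any of these 5 averaged contrasts. The count was 0 of 10 for a 40% HFD against an ND, where 9.21% of all genes passed, 0 of 10 for a 60% HFD against an ND (18.6% of all genes), 0 of 10 for a 60% against a 40% HFD (0.745%), 0 of 10 for CCL19-KI against WT (0.459%) and 0 of 10 for ligature against none (0.325%). At an unadjusted p below 0.05 the counts were 1 (*Cd55*), 1 (*Cd55*), 0, 0 and 2 (*Pdgfra* and *F3*), and edgeR on the recovered reads also called 0 in each. Without the 2 libraries that go against their labels the count stayed 0 in all 5, where 7.90%, 15.0%, 1.52%, 7.35% and 0.358% of all genes passed.

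None of the 10 genes passed in the averaged genotype contrast, with or without the 2 libraries that go against their labels. Averaged over diet and ligature, the log2 difference of CCL19-KI and WT ran from -0.14 for *F3* to 0.094 for *Pdgfrb*, with 95% intervals reaching no further than -0.42 and 0.57 over the 10 genes and adjusted p between 0.591 and 0.880 (limma). The median of the 10 was 0.080, beside -0.018 over all genes. With the 2 libraries that go against their labels left out, the difference ran from -0.16 for *F3* to 0.26 for *Pi16*, with *Pdgfra* at 0.23 against 0.085 with all libraries, and adjusted p between 0.323 and 0.939. The intervals with all libraries leave room for differences of up to about 0.57 on the log2 scale in single genes, and a p above the threshold does not show that the genotypes are alike.

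**Figure D2:**
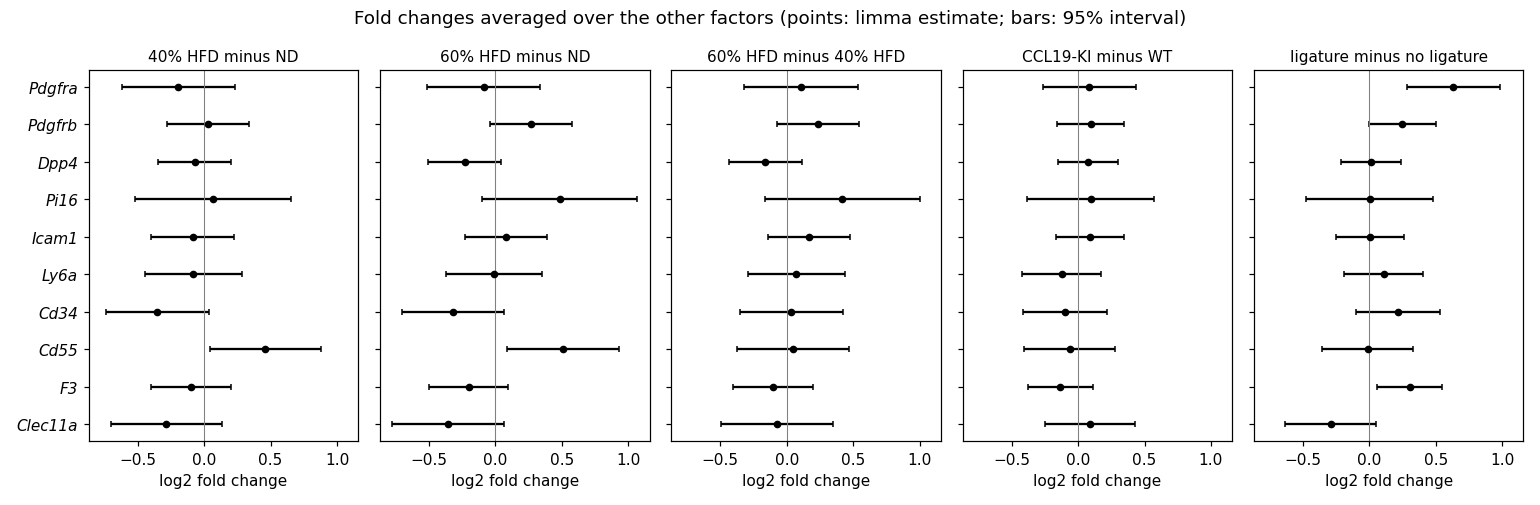
Log2 difference (x axis) of each of the 10 genes (y axis) in the 5 averaged contrasts, as the limma estimate (points) with its 95% confidence interval (bars). The intervals of *Pdgfra* (0.28 to 0.98) and *F3* for ligature and of *Cd55* for both high-fat diets against ND lie above 0, but no gene passed at an adjusted p below 0.05.

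*Pdgfra* had the largest ligature difference of the 10 genes. Its lowest, median and highest values were 51.5, 85.6 and 265 CPM in the 18 unligatured libraries and 93.3, 134 and 246 CPM in the 18 ligatured libraries. The ligatured mean was higher in 6 of 6 combinations of genotype and diet by the means of log2 values and in 5 of 6 by the means of CPM, and the ranges of the 2 arms overlapped. The averaged log2 difference was 0.63 (SE 0.17, 95% interval 0.28 to 0.98), with an unadjusted p of 9.22e-04 and an adjusted p of 0.0929 in limma. Under a 60% HFD the values in WT mice were 87.5, 69.4 and 51.5 CPM without and 119, 177 and 131 CPM with ligature, and the 2 sets did not overlap. Under an ND they were 111, 195 and 78.2 CPM without and 133, 103 and 174 CPM with ligature, and these overlapped. In CCL19-KI mice under an ND the sets, 83.7, 92.4 and 89.9 against 179, 122 and 134 CPM, did not overlap either. In the remaining combinations of genotype and diet the sets overlapped. *Pdgfra* was called in neither combination without overlap. There 0 (WT, 60% HFD) and 244 (CCL19-KI, ND) of all genes passed in limma.

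The *Pdgfra* result varied with the libraries included. The 2 highest unligatured values, 265 CPM in CCL19-KI 60% HFD replicate 2 and 195 CPM in the library labelled WT ND replicate 2, came from libraries with 9881 and 12158 CPM of epididymal markers, but the library labelled CCL19-KI 60% HFD replicate 3, with 9553 CPM of these markers, held 57.1 CPM of *Pdgfra*, among the 4 lowest of the 36. The remaining libraries rich in these markers held 109 CPM (WT 40% HFD replicate 2, 1524 CPM of epididymal markers) and 179 CPM (ligatured CCL19-KI ND replicate 1, 2209 CPM). Without the 5 libraries rich in epididymal transcripts the log2 difference of *Pdgfra* was 0.71 and passed the test (adjusted p = 0.00464, limma), where 9.15% of all genes passed. Leaving out WT 40% HFD unligatured replicate 2 or CCL19-KI 60% HFD unligatured replicate 2 alone also gave a call, with log2 differences of 0.67 (adjusted p = 0.0455) and 0.72 (adjusted p = 0.0212), where 1.52% and 1.01% of all genes passed. Without the 8 libraries rich in hepatocyte transcripts it was 0.50 (adjusted p = 0.702, limma), where 0% of all genes passed, and without the 2 libraries that go against their labels 0.60 (adjusted p = 0.0596).

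The other genes had smaller ligature differences. The log2 difference of *F3* was 0.30 (SE 0.12, adjusted p = 0.217, limma), with a higher ligatured mean in 5 of 6 combinations by either mean, and its lowest, median and highest values were 11.9, 24.9 and 37.1 CPM without and 21.7, 28.2 and 43.9 CPM with ligature. *Pdgfrb* differed by 0.25 (adjusted p = 0.317), with a higher mean in 5 of 6 combinations by log2 values and 4 of 6 by CPM. *Clec11a* was the lowest, at -0.29 (adjusted p = 0.385), with 4.25, 7.36 and 20.2 CPM without and 3.13, 6.79 and 14.0 CPM with ligature and a higher mean in 1 of 6 combinations by log2 values and 2 of 6 by CPM. Leaving out the 2 libraries that go against their labels, the differences were 0.33 (*F3*), 0.20 (*Pdgfrb*) and -0.36 (*Clec11a*), with adjusted p of 0.193, 0.450 and 0.272. The CPM ranges of these 3 genes overlapped between the arms. The median of the 10 genes was 0.060, beside -0.022 over all genes.

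The interstitial progenitor genes *Cd55* and *Pi16* had the highest differences of the 10 genes for a 60% HFD against an ND, and neither passed the test. *Cd55* had lowest, median and highest values of 32.6, 49.7 and 99.1 CPM under an ND, 40.3, 70.5 and 133 CPM under a 40% HFD and 42.2, 81.8 and 128 CPM under a 60% HFD (12 libraries each). Its medians followed the order of the diets, and the ranges of the 3 diets overlapped. The log2 difference from ND was 0.46 (SE 0.20, adjusted p = 0.148) for the 40% HFD and 0.51 (SE 0.20, adjusted p = 0.0772) for the 60% HFD in limma, with a higher mean in 3 of 4 and 4 of 4 combinations of genotype and ligature, by log2 values and by CPM. *Pi16* had 38.4, 58.4 and 131 CPM under an ND, 30.6, 66.1 and 145 CPM under a 40% HFD and 35.4, 86.3 and 214 CPM under a 60% HFD. Its log2 difference from ND was 0.066 (SE 0.28, adjusted p = 0.905) for the 40% HFD, with a higher mean in 2 of 4 combinations by either mean. For the 60% HFD it was 0.48 (SE 0.28, adjusted p = 0.230), with a higher mean in 4 of 4 by log2 values and 3 of 4 by CPM.

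Both genes passed the test under some choices of libraries. Without the 5 libraries rich in epididymal transcripts, the 60% HFD against ND difference was 0.68 for *Cd55* (adjusted p = 0.0420) and 0.90 for *Pi16* (adjusted p = 0.0348) in limma, 2 of 10 genes where 18.1% of all genes passed. Without the 2 libraries that go against their labels it was 0.56 (adjusted p = 0.0573) and 0.73 (adjusted p = 0.0593), and neither passed. *Cd55* was also called when CCL19-KI ND unligatured replicate 1 (0.63, adjusted p = 0.0228), ligatured WT 60% HFD replicate 3 (0.60, adjusted p = 0.0422) or the library labelled CCL19-KI 60% HFD unligatured replicate 3 (0.62, adjusted p = 0.0298) was left out alone, where 20.7%, 16.1% and 18.3% of all genes passed. The last of these held 43.2 CPM of *Cd55* and 35.4 CPM of *Pi16*, against 128 and 92.2 CPM and 214 and 154 CPM in the other libraries of its group.

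With all libraries and equal weights none of the other genes passed in an averaged diet contrast. *Cd34* was -0.35 (adjusted p = 0.233) under a 40% HFD and -0.32 (adjusted p = 0.230) under a 60% HFD relative to ND, and *Clec11a* -0.36 (adjusted p = 0.213) under a 60% HFD. With sample quality weights, which gave the 36 libraries weights of 0.167 to 11.3, 5 of the 10 passed for a 60% HFD against an ND, where 44.0% of all genes did: *Pi16*, *Cd55*, *Pdgfrb* and *Icam1* higher and *Dpp4* lower (0.91, 0.67, 0.44, 0.34 and -0.28). Between the 2 high-fat diets the differences ran from -0.16 for *Dpp4* to 0.42 for *Pi16*, with adjusted p of 0.515 or more. The medians of the 10 genes were -0.084, -0.050 and 0.060 for the 3 diet contrasts, beside -0.016, 0.014 and 0.015 over all genes.

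*Dpp4* was the single gene of the 10 called in comparisons of individual groups, and all its calls involved unligatured WT mice under an ND. Those 3 libraries held 103, 87.1 and 93.9 CPM, the lowest group of the 12, with the library labelled WT ND replicate 2 the lowest of the 36. Unligatured CCL19-KI mice under an ND held 356, 172 and 170.1 CPM, ligatured WT mice under an ND 277, 233 and 201 CPM, and ligatured CCL19-KI mice under an ND 155, 207 and 152 CPM. Every library of these 3 groups lay above every unligatured WT library under an ND, and the ligatured WT and ligatured CCL19-KI groups overlapped.

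Under the 40% HFD the *Dpp4* groups ran together. Unligatured WT mice held 132, 193 and 177 CPM, ligatured WT mice 177, 153 and 113 CPM, unligatured CCL19-KI mice 180.4, 149.7 and 225 CPM and ligatured CCL19-KI mice 142, 137 and 190.4 CPM. Under the 60% HFD the corresponding values were 125, 162 and 189, then 152, 159 and 166, then 239, 129 and 123, and then 90.2, 150.1 and 102 CPM. Ligatured and unligatured groups of the same genotype overlapped at both high-fat diets, and so did the genotypes, except that all 3 ligatured CCL19-KI libraries under a 60% HFD lay below the 3 ligatured WT libraries (log2 difference -0.51, adjusted p = 1.00, limma).

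In limma, *Dpp4* was higher in unligatured CCL19-KI than WT mice under an ND by 1.20 on the log2 scale (SE 0.27, 95% interval 0.65 to 1.75, adjusted p = 0.00678), 1 of 10 genes where 16.6% of all genes passed. In WT mice under an ND it was higher with ligature by 1.31 (SE 0.27, 95% interval 0.76 to 1.86, adjusted p = 0.00679), 1 of 10 where 6.73% passed. The effect of ligature under an ND differed between the genotypes by -1.67 (SE 0.38, 95% interval -2.45 to -0.89, adjusted p = 0.0103), 1 of 10 where 7.59% passed. All 3 contrasts share the unligatured WT libraries. Averaged over the diets the same difference was -0.74 (adjusted p = 0.310).

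Without the 2 libraries that go against their labels the 3 *Dpp4* differences were 1.14, 1.25 and -1.61 with adjusted p of 0.0123, 0.0107 and 0.0199 in limma, where 19.5%, 10.8% and 7.99% of all genes passed. The genotype difference was not called when only its 2 groups were fitted (adjusted p = 0.124, where 0% of all genes passed), nor were it and the interaction without the 8 libraries rich in hepatocyte transcripts (1.38, adjusted p = 0.0622, and -1.85, adjusted p = 0.0557), where 0.204% and 0.301% of all genes passed. The ligature difference lost its call without ligatured WT ND replicate 1 (1.19, adjusted p = 0.0694, where 0.449% of all genes passed). Without CCL19-KI ND unligatured replicate 1, the highest *Dpp4* library, the genotype difference was 0.85 (adjusted p = 0.0178), and *F3* was then also called, at -1.03 (adjusted p = 0.0127), 2 of 10 where 27.1% of all genes passed, against -0.70 (adjusted p = 0.0956) with all libraries. Without the 5 libraries rich in epididymal transcripts *Dpp4* was also called lower with ligature in CCL19-KI mice under a 60% HFD (-1.09, adjusted p = 0.0489), and in the interaction averaged over diets (-0.94, adjusted p = 0.0199, limma), where 13.8% and 7.16% of all genes passed.

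Markers of mesothelium, the cell layer that covers the pad, had differences of the same sign as *Dpp4* in these comparisons. The 9 mesothelial markers summed to 546 to 834 CPM in unligatured WT mice under an ND and 981 to 2801 CPM in unligatured CCL19-KI mice. The sums were 1796 to 2123 CPM in ligatured WT mice and 1344 to 2108 CPM in ligatured CCL19-KI mice. The 546 CPM is that of the library labelled WT ND replicate 2, which goes against its label. All 9 were above 0 in every library of the series. In the genotype comparison 9 of 9 had a positive log2 difference (median 1.03) and 1 passed, *Wt1*, a transcription factor of mesothelium, at 1.37 (adjusted p = 0.0358, limma). In the ligature comparison of WT mice 9 of 9 were positive (median 1.56) and *Wt1* passed, at 1.77 (adjusted p = 0.0196). In the interaction 0 of 9 were positive (median -1.38) and 0 passed. The share of all genes that passed was 16.6% in the genotype comparison, 6.73% in the ligature comparison and 7.59% in the interaction. The mesothelial counts for genotype and interaction lie below these shares, and the ligature count, 1 of 9, lies near its share.

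The summed level of 4 of the 17 marker lists in unligatured WT mice under an ND did not overlap that of any of the other 3 ND groups: the mesothelial list, and 3 more. The sum of 10 kidney tubule markers was 66.5 to 97.6 CPM there, against 143 to 311 CPM in unligatured CCL19-KI, 118 to 213 CPM in ligatured WT and 107 to 188 CPM in ligatured CCL19-KI mice, higher in each. The sum of 8 mural cell markers was 482 to 634 CPM, against 130.1 to 241, 195 to 287 and 231 to 327 CPM in the same order, and that of 10 committed preadipocyte genes 1076 to 1219 CPM, against 542 to 954, 691 to 983 and 778 to 795 CPM. Both were lower in each of the other groups. The share of all genes that separate in this way was not counted, so 4 of 17 is no result about these cell types. The unligatured WT group includes the library labelled WT ND replicate 2, which goes against its label.

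Hepatocyte markers also differed in these comparisons. Their sum ran from 129 to 1540.0 CPM in unligatured WT mice, from 1192 to 36094 CPM in unligatured CCL19-KI mice, from 4457 to 15721 CPM in ligatured WT mice and from 1751 to 10225 CPM in ligatured CCL19-KI mice, and the first 2 groups overlapped. Of the 10, 9 were called higher in CCL19-KI, 10 higher with ligature in WT mice, and 9 lower in the interaction. Of all genes 16.6%, 6.73% and 7.59% passed there, in the same order. The part of any of these marker lists in the *Dpp4* differences was not tested.

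Across all 24 comparisons of individual groups, 2 of 240 tests of the 10 genes were called, both of *Dpp4*, and 22 had an unadjusted p below 0.05, while the share of all genes called ran from 0% to 16.8% over these comparisons. Of the 100 tests of differences between effects 1 was called and 9 had an unadjusted p below 0.05, beside 0% to 7.59% of all genes. EdgeR on the recovered reads called *Dpp4* in the same 3 contrasts and no other of the 10 genes in any.

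*Dpp4* in unligatured WT mice and *Cd34* in ligatured CCL19-KI mice came closest to further calls. For a 40% HFD against an ND in unligatured WT mice, the groups given above, the log2 difference of *Dpp4* was 0.80 (SE 0.27, adjusted p = 0.0714, limma), 0 of 10 genes where 6.03% of all genes passed. The difference without the 2 libraries that go against their labels was 0.74 (adjusted p = 0.118, 8.07% of all genes), and it was called under none of the alternatives run that use the adjusted p. *Cd34* in ligatured CCL19-KI mice was at 241, 236 and 193 CPM under an ND and at 93.2, 126 and 117 CPM under a 60% HFD, and the 2 groups did not overlap. The log2 difference was -0.99 (SE 0.38, adjusted p = 0.0741, limma), and 0 of the 10 genes passed where 12.8% of all genes did. It was called without the 2 libraries that go against their labels (adjusted p = 0.0476, 19.6% of all genes), although neither of them is in these groups, and when the ligatured libraries were fitted alone (adjusted p = 0.0241, 22.3% of all genes). In that fit *Pdgfrb* was called too, higher by 0.70 (adjusted p = 0.0266), with 40.4, 32.2 and 45.6 CPM under an ND and 56.0, 74.5 and 62.4 CPM under a 60% HFD.

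In unligatured mice under a 60% HFD, *Pdgfra* depended on the library labelled CCL19-KI replicate 3. The WT libraries held 87.5, 69.4 and 51.5 CPM and the libraries labelled CCL19-KI 119, 265 and 57.1 CPM, so the groups overlapped through that library alone. None of the 10 genes was called with it, where 16.8% of all genes passed. Without the 2 libraries that go against their labels *Pdgfra* was higher in CCL19-KI by 1.38 (adjusted p = 0.0184, limma), 1 of 10 where 17.8% passed. The higher of the remaining CCL19-KI libraries, at 265 CPM, is among those rich in epididymal transcripts, and its part in the difference was not tested.

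The 10 genes varied together from library to library. Over the 36 libraries 43 of their 45 pairs had a positive Pearson correlation of log2(CPM + 1), with a median of 0.38 and a range of -0.09 to 0.80. In 15 pairs the adjusted permutation p was below 0.05 both over all libraries and within the 12 groups, with 175 relations adjusted together (45 pairs of the genes and 130 of a gene with a marker list). The libraries share depth scaling and the mixture of tissue in each pad.

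*Ly6a* and *Cd34* were the closest pair, with r = 0.80 and rho = 0.79 (permutation p = 1e-05 for each, the smallest that 100000 permutations can give; adjusted p = 2.19e-04 and 2.92e-04). Without the 2 libraries farthest from the *Cd34* median r was 0.75, and within groups 0.83. *Pi16* and *Cd55*, both of interstitial progenitors, had r = 0.76 and rho = 0.76 (permutation p = 1e-05 for each, adjusted 2.19e-04 and 2.92e-04), 0.81 without the 2 farthest libraries and 0.80 within groups. *Dpp4* did not go with them: its r with *Pi16* was 0.18 and rho 0.19 (permutation p = 0.286 and 0.266, adjusted 0.439 and 0.431), and 0.15 without the 2 farthest. Its closest partner among the 10 was *Clec11a*, at r = 0.65 and rho = 0.63 (permutation p = 1e-05 and 1.10e-04, adjusted 2.19e-04 and 0.00175), 0.54 without the 2 farthest and 0.70 within groups.

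**Figure D3:**
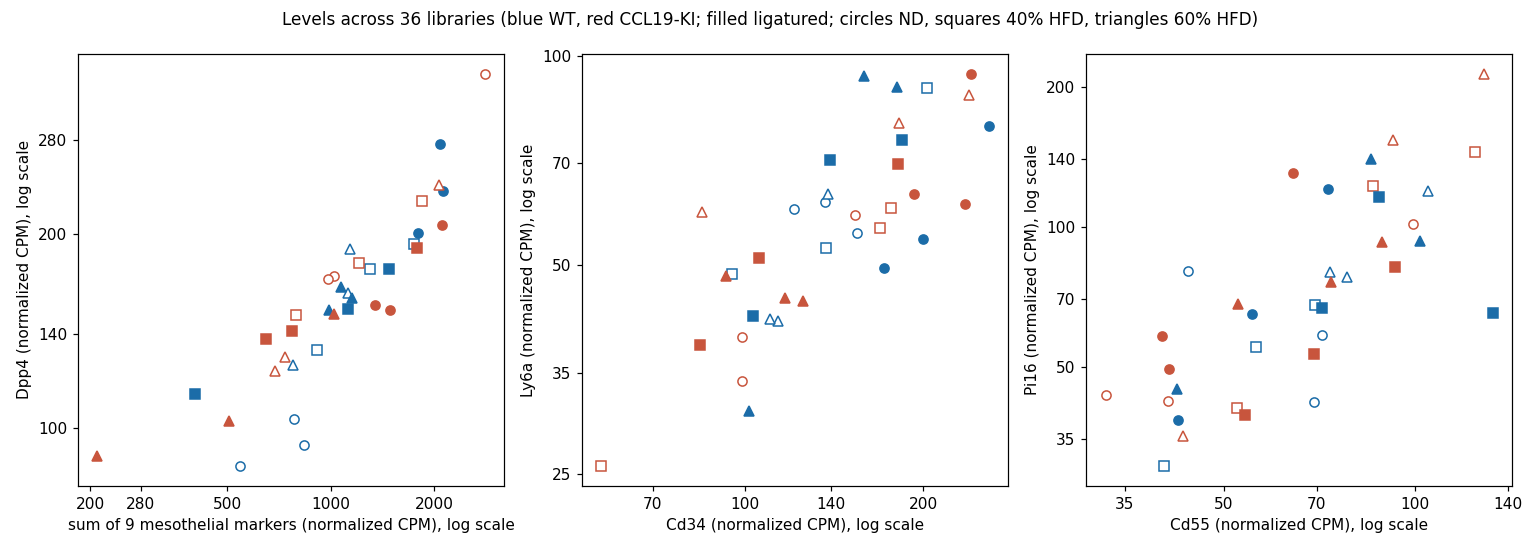
Levels in the 36 libraries on log axes in normalized CPM, of *Dpp4* against the sum of 9 mesothelial markers, *Ly6a* against *Cd34*, and *Pi16* against *Cd55*, with WT in blue, CCL19-KI in red, ligatured libraries filled and the diet given by the symbol (circle ND, square 40% HFD, triangle 60% HFD). The points of *Dpp4* and the mesothelial sum lie along 1 line (r = 0.88), and the other panels show wider clouds (r = 0.80 and 0.76).

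*Dpp4* followed the mesothelial markers more closely than any other of the 10 genes did. The correlation with the summed level of the mesothelial list, on the log2 scale, was r = 0.88 and rho = 0.93 (permutation p = 1e-05 for each, the smallest possible; adjusted p = 2.19e-04 and 2.92e-04). It was 0.90 without the 2 farthest libraries, 0.91 within groups (adjusted permutation p = 5.83e-04), 0.93 in ligatured and 0.93 in unligatured mice, and 0.88 without the libraries that go against their labels. *Clec11a* and *Cd34* also went with these markers, at r = 0.71 and rho = 0.68 (permutation p = 1e-05 for each, 0.65 without the 2 farthest) and r = 0.65 and rho = 0.72 (permutation p = 2.00e-05 and 1e-05, 0.65 without the 2 farthest). Adjusted p was 2.19e-04 and 3.50e-04 for the Pearson values. For the other interstitial progenitor genes r with the mesothelial list was 0.19 (*Pi16*) and 0.061 (*Cd55*), neither with an adjusted permutation p below 0.05.

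**Figure D4:**
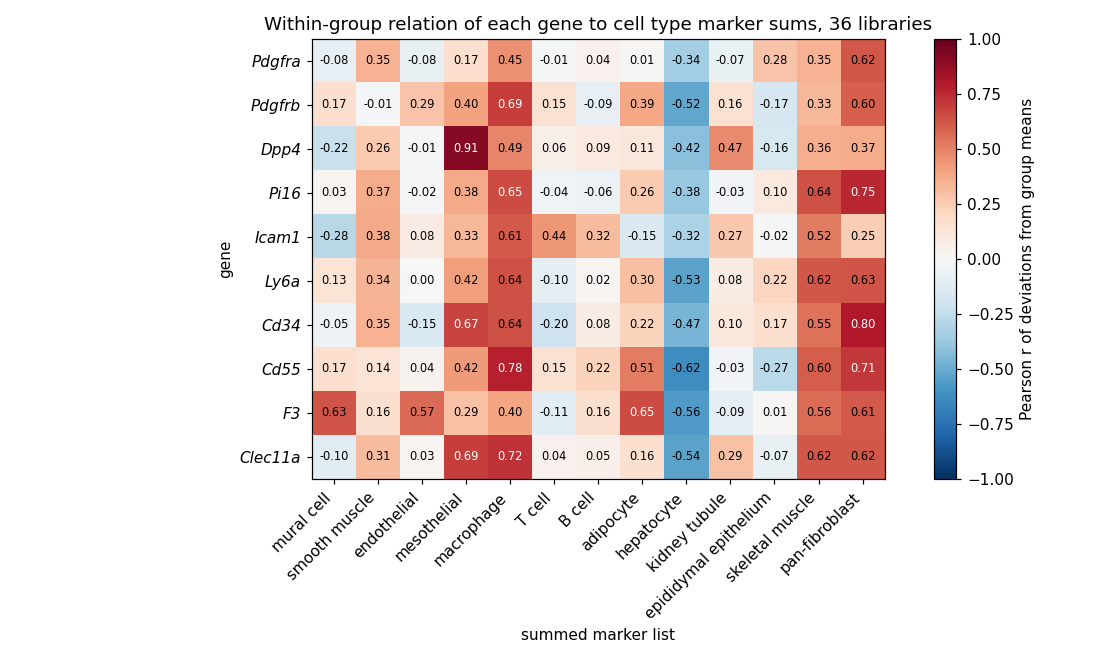
Pearson r (color and printed value) between the deviations from group means of each of the 10 genes (rows) and of the summed level of each of 13 marker lists (columns), on the log2 scale over 36 libraries. The highest value is that of *Dpp4* with the mesothelial list, 0.91, and the hepatocyte column is negative throughout.

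Other genes tracked other lists. *Cd34* followed the pan-fibroblast list (r = 0.75, rho = 0.74, permutation p = 1e-05 for each, adjusted 2.19e-04 and 2.92e-04, 0.73 without the 2 farthest libraries, 0.80 within groups). *Cd55* went with the macrophage list (r = 0.67, rho = 0.65, permutation p = 1e-05 and 7.00e-05, adjusted 2.19e-04 and 0.00136, 0.59 without the 2 farthest, 0.78 within groups), and so did *Pdgfrb* (r = 0.67, rho = 0.63, permutation p = 1e-05 and 8.00e-05, adjusted 2.19e-04 and 0.00140, 0.64 without the 2 farthest, 0.69 within groups). *Pdgfrb* with the mural cell list, the pericyte markers, had r = 0.29 and rho = 0.15 (permutation p = 0.0811 and 0.378, adjusted 0.180 and 0.556), and 0.13 without the 2 farthest. *F3* went with the adipocyte list at r = 0.63 and rho = 0.49 (permutation p = 5.00e-05 and 0.00252, adjusted 7.29e-04 and 0.0138, 0.47 without the 2 farthest), but within ligatured mice r was 0.27 and within unligatured mice 0.75. Within groups, all 10 genes had a negative correlation with the hepatocyte list, from -0.32 to -0.62.

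The promoters of *Dpp4* and its closest partner *Clec11a*, and of the interstitial progenitor genes *Pi16* and *Cd55*, are shown so that the sequences of 2 of the 15 pairs that varied together can be set beside that pattern. RefSeq promoter windows on GRCm38.p6, from 250 bases before to 50 after the annotated start, were matched for 8 of the 10 genes. *Ly6a*, of the closest pair, and *Pdgfrb* were not among them. Each runs 5′ to 3′ on the strand of its gene, and capitals mark matches, on either strand, to the TATA box (TATAAA), the GC box (GGGCGG), the CCAAT box (CCAAT) and the TEAD core (GGAATG), the letters read by TEAD factors. *Dpp4* lies on the minus strand (chr2:62412182-62412481), *Clec11a* on the minus strand (chr7:44306910-44307209), *Pi16* on the plus strand (chr17:29318632-29318931) and *Cd55* on the minus strand (chr1:130462695-130462994). The *Pi16* window starts inside the GENCODE gene, since RefSeq places the start further downstream.
Dpp4: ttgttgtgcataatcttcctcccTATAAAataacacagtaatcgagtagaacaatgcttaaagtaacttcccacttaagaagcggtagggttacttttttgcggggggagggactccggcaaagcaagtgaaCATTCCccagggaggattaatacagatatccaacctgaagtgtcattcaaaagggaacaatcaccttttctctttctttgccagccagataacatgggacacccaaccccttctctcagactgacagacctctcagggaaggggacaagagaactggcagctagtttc
Clec11a: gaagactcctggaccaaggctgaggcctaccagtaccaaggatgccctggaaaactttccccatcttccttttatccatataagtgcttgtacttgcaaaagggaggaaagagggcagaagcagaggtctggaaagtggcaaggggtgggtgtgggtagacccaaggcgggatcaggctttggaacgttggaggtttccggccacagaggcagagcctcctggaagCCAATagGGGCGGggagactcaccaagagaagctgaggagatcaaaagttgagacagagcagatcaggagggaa
Pi16: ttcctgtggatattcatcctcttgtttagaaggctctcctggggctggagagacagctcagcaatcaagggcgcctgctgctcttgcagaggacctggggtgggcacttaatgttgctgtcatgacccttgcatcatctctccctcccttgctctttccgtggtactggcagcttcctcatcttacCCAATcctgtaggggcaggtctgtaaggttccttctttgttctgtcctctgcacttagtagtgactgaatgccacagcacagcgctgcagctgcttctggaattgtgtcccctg
Cd55: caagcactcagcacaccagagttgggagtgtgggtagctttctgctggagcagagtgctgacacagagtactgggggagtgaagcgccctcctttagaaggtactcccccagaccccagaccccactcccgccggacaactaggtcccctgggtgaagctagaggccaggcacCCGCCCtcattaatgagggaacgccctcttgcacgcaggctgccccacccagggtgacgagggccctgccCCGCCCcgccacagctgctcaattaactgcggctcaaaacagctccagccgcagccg

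Neither pair shared its set of matches. Counted from the start of transcription, the *Dpp4* window held the TATA box at -227 and the TEAD core on the reverse strand at -118, and the *Clec11a* window a CCAAT box at -24 and a GC box at -17, which do not overlap. The *Pi16* window held a CCAAT box at -64 and the *Cd55* window GC boxes on the reverse strand at -77 and -7. Their GC content was 45.3% (*Dpp4*), 54.0% (*Clec11a*), 53.3% (*Pi16*) and 63.3% (*Cd55*). Of 32841 RefSeq promoter windows of this length, 13.6% held the TATA box, 35.7% the GC box, 37.4% the CCAAT box and 14.7% the TEAD core. A match describes letters only.

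By the rule of likeness, the 3 genes with the highest Pearson correlation of log2(CPM + 1) over the 36 libraries among the 17852 tested were listed for each member, as a description without a test. For the receptors they were *Cyp1b1* (r = 0.88), *Lama2* (r = 0.81) and *Ltbp1* (r = 0.79) for *Pdgfra* and *Adcy7* (r = 0.79), *Tm6sf1* (r = 0.79) and *Ssc5d* (r = 0.79) for *Pdgfrb*. *Dpp4* was most like *Gm26873* (r = 0.90), *Cldn15* (r = 0.90) and *Cobl* (r = 0.90). *Pi16* was most like *Islr* (r = 0.83), *Clec3b* (r = 0.81) and *Efhd1* (r = 0.80), and *Cd55* most like *Efhd1* (r = 0.91), *S100a10* (r = 0.84) and *Sfrp4* (r = 0.82), so that *Efhd1*, a mitochondrial calcium-binding protein on the interstitial progenitor list, stood among the 3 of both. *Ly6a* was most like *Pf4* (r = 0.83), *Sec14l1* (r = 0.83) and *C1qa* (r = 0.80), the last a macrophage complement gene, and *Cd34* most like *Timp2* (r = 0.91), *Plat* (r = 0.89) and *Add3* (r = 0.89). For *Icam1* they were *Cxcl16* (r = 0.80), *Cmtm7* (r = 0.72) and *Rhoj* (r = 0.71), for *F3* *Tmem87a* (r = 0.82), *Lzts2* (r = 0.82) and *Fgfr1* (r = 0.81), and for *Clec11a* *Pcolce* (r = 0.89), *Pdpn* (r = 0.88) and *Fkbp10* (r = 0.87). *Pcolce* and *Fkbp10* take part in collagen processing, and *Pdpn* encodes podoplanin, a surface protein of stromal, lymphatic and mesothelial cells.

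Other genes of the same cell populations were counted in the averaged contrasts in limma, beside the share of all genes called there, 9.21% for a 40% HFD and 18.6% for a 60% HFD against an ND and 0.325% for ligature. Of 12 further interstitial progenitor genes, 1 was higher under a 40% HFD than an ND, *Wnt2*, a signaling ligand (0.54, adjusted p = 0.0275), and 2 under a 60% HFD, *Wnt2* (0.47, adjusted p = 0.0333) and *Limch1* (0.63, adjusted p = 0.0251). The medians of the list were 0.15 and 0.24. Of 10 genes of committed preadipocytes, 1 was higher under a 60% HFD, the collagen gene *Col15a1* (1.07, adjusted p = 0.0156, list median 0.0070), and 2 were higher with ligature, *Ggt5* (0.52) and *Sparcl1* (0.61), each with adjusted p = 0.0280 (list median 0.093). The diet counts of both lists lie near or below the share of all genes.

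Genes of the CD142 stromal population that passed in the diet contrasts were lower under a high-fat diet. Of 8, where the same shares of all genes passed, *Gdf10*, a ligand of the TGF-beta family, was lower under a 40% HFD (-0.76, adjusted p = 0.0334), and 3 were lower under a 60% HFD: *Gdf10* (-0.93, adjusted p = 0.00631), the monooxygenase gene *Fmo2* (-0.88, adjusted p = 0.0280) and *Vit*, a matrix protein gene (-0.71, adjusted p = 0.0418). The list medians were -0.34 and -0.18, and *F3* itself differed from ND by -0.098 and -0.20 (adjusted p = 0.700 and 0.336). Of 14 pan-fibroblast genes, *Serpinf1* was higher under a 60% HFD (0.82, adjusted p = 0.00166, list median 0.057), a count below the share of all genes, 18.6%. *Gsn*, gelsolin, was higher with ligature (0.70, adjusted p = 0.0364, list median -0.068), where 0.325% of all genes passed. Of the 4 PDGF ligand genes, *Pdgfb*, the ligand of both receptors, was higher under a 60% HFD (0.51, adjusted p = 0.0231). With all 36 libraries, none of the genes of these 5 lists was called in the averaged genotype contrast or between the high-fat diets. The lists were not counted without the 2 libraries that go against their labels. There 7.35% of all genes passed for genotype, against 0.459% with all libraries.

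Genes of other cell types were counted in the same contrasts. Under a 60% HFD against an ND, where 18.6% of all genes passed, 3 of 9 mesothelial genes were lower, *Wt1* (-0.81), *Upk1b* (-0.80) and *Muc16* (-0.90), while 8 of 10 hepatocyte, 5 of 10 kidney tubule, 2 of 9 macrophage and 1 of 9 adipocyte genes were higher, 3 of 10 endothelial genes were higher and 1 lower, and 1 of 8 mural cell, 1 of 8 smooth muscle and 2 of 8 skeletal muscle genes were lower. The adipocyte, mural cell and smooth muscle counts lie below the share of all genes, and the macrophage and skeletal muscle counts near it. Under a 40% HFD against an ND, where 9.21% of all genes passed, 8 of 10 hepatocyte and 3 of 10 endothelial genes were higher and 5 of 8 skeletal muscle genes lower. In the genotype contrast, where 0.459% of all genes passed, 1 of 8 mural cell genes was higher in CCL19-KI. In these 5 contrasts no gene of the B cell, T cell or epididymal epithelium lists was called, with 8 of 8, 6 of 8 and 4 of 8 of their genes tested. The part of these cell types in the differences of the 10 genes was not tested.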

How the data were processed

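Libraries of ribosomal RNA-depleted total RNA (directional kit, MGI) were trimmed with Trimmomatic 0.38 and quantified with RSEM 1.3.0 and Bowtie2 by the authors. The values the authors deposited are a signal in normalized CPM, scaled with edgeR. The build is given as GRCm39 in the submitters' notes and as mm10 in the methods, and coordinates here come from GENCODE M21 (GRCm38). Of 24750 Ensembl IDs, 24626 matched a symbol. Every value was a whole multiple of what 1 read is worth (100% within 0.01), so reads could be recovered and depth is known.

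The test was limma 3.58.1 (R 4.3.3) with an intensity trend on log2(CPM + 1), in 1 fit of 36 libraries and 12 group means, over 17852 genes with at least 1 CPM in at least 3 libraries. Fold changes are on this scale, which understates changes of low genes. Benjamini-Hochberg adjusted p below 0.05 was a call. EdgeR 4.0.16 on the recovered reads was an alternative. Correlations used 100000 permutations (numpy 2.4.6, two-sided). The scripts were tested on simulated data. An exact permutation test of 3 against 3 libraries cannot go below a p of 0.1, so none was used.

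Groups came from the labels. These number 3 samples per group without naming animals, so p-values measure the spread between these samples. The series' own design text speaks of ligature in all groups, and the labels were followed. The members and marker lists were chosen with earlier results of these data known. Genes named beside the 10 were those of the lists that passed and, for each member, the 3 most correlated genes. Same-numbered libraries of different groups deviated with correlations of -0.66 to 0.71 (median -0.015, over 0.1 in 73 of 198 pairs), so the numbers do not pair the samples. Alternatives comprised pseudocounts of 0.1 and 5, other filters, normalizations, weights and fits, the study's criteria (an unadjusted p up to 0.05 with a fold from 1.5 upward or 0.67 downward), leaving out each library, and, chosen after seeing the data, leaving out libraries rich in epididymal or hepatocyte transcripts or with *Ccl19* against their label.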

Additional observations from a re-analysis of the deposited data

Results flagged for a closer look

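The effect of ligature on *Dpp4* under an ND differed between the genotypes by -1.67 on the log2 scale (SE 0.38, adjusted p = 0.0103, limma interaction term, 3 libraries in each of 4 groups). In this contrast 7.59% of all genes passed. The ligatured mean minus the unligatured mean was 1.31 in WT mice and -0.36 in CCL19-KI mice, and the latter was not called. The CCL19-KI libraries held 356, 172 and 170.1 CPM without and 155, 207 and 152 CPM with ligature, and these overlapped. Without CCL19-KI ND unligatured replicate 1, at 356 CPM, the genotypes differed by -1.32 (adjusted p = 0.0113, limma interaction term). Without the 8 libraries rich in hepatocyte transcripts they differed by -1.85, and the call was lost. The 3 unligatured WT libraries, among them the library labelled WT ND replicate 2 whose *Ccl19* goes against its label, were the lowest group of the series.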

How the results depend on the processing

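*Dpp4* kept its direction in its 3 called contrasts under every alternative run, and the averaged difference of *Pdgfra* with ligature stayed positive, from 0.46 to 0.71, or 0.54 to 0.72 with 1 library left out. With a fit of only the groups compared, 0 of 10 genes passed for CCL19-KI against WT, ND, unligatured and 2 of 10 genes passed for 60% HFD against ND, CCL19-KI, ligatured (0% to 11.6% of all genes). With quantile normalization, 2 of 10 genes passed for 60% HFD against ND, CCL19-KI, ligatured (12% of all genes). With sample quality weights the count of the 10 genes called became 1, 2, 3, 4 or 5 in 23 of the contrasts (2.4% to 59.8% of all genes). With separate fits of ligatured and unligatured mice, 2 of 10 genes passed for 60% HFD against ND, CCL19-KI, ligatured (22.3% of all genes). With the study's criteria the count of the 10 genes called became 1, 2 or 3 in 19 of the contrasts (0.527% to 23.3% of all genes). With the libraries rich in epididymal transcripts left out the count of the 10 genes called became 1 or 2 in 5 of the contrasts (7.16% to 18.1% of all genes). With the libraries rich in hepatocyte transcripts left out, 0 of 10 genes passed for CCL19-KI against WT, ND, unligatured and 0 of 10 genes passed for genotype by ligature, ND (0.204% to 0.301% of all genes). With the libraries that go against their labels left out, 1 of 10 genes passed for CCL19-KI against WT, 60% HFD, unligatured and 1 of 10 genes passed for 60% HFD against ND, CCL19-KI, ligatured (17.8% to 19.6% of all genes). The averaged differences that changed sign lay between -0.28 and 0.11 with all libraries. With quantile normalization these were *Pdgfrb* -0.048, *Pi16* -0.046 (40% HFD against ND), *Cd34* 0.016, *Cd55* 0.023 (CCL19-KI against WT), *Cd55* 0.022 (ligature). With sample quality weights these were *Pdgfra* 0.015, *Icam1* 0.090, *Ly6a* 0.18, *F3* 0.036, *Clec11a* 0.046 (40% HFD against ND), *Pdgfra* 0.25, *Ly6a* 0.16 (60% HFD against ND), *Ly6a* -0.023, *Cd34* -0.076 (60% HFD against 40% HFD), *Pi16* -0.032, *Icam1* -0.022 (ligature). With edgeR these were *Ly6a* 0.0047 (60% HFD against ND), *Cd34* -0.025 (60% HFD against 40% HFD), *Cd55* 0.0011 (CCL19-KI against WT), *Pi16* -0.021 (ligature). With a pseudocount of 5 these were *Pi16* -0.0036 (ligature). With the libraries rich in epididymal transcripts left out these were *Pdgfrb* -0.016, *Icam1* 0.062 (40% HFD against ND), *Pdgfra* 0.032, *Ly6a* 0.10 (60% HFD against ND), *Dpp4* 0.021, *Clec11a* 0.025 (60% HFD against 40% HFD), *Cd34* 0.042 (CCL19-KI against WT), *Dpp4* -0.072, *Pi16* -0.18, *Icam1* -0.10 (ligature). With the libraries rich in hepatocyte transcripts left out these were *Pdgfra* 0.078, *Ly6a* 0.19, *F3* 0.036 (40% HFD against ND), *Pdgfra* 0.018, *Ly6a* 0.20 (60% HFD against ND), *Pdgfra* -0.060, *Cd34* -0.18 (60% HFD against 40% HFD), *Dpp4* -0.018, *Pi16* -0.11, *Ly6a* -0.00072 (ligature). With the libraries that go against their labels left out these were *Pdgfra* 0.14, *Ly6a* 0.036 (60% HFD against ND), *Clec11a* 0.037 (60% HFD against 40% HFD), *Dpp4* -0.028, *Pi16* -0.090, *Icam1* -0.032 (ligature). Leaving out 1 library at a time, the count of the 10 genes called ran from 0 to 1 for 60% HFD against ND (averaged) (13.5% to 23% of all genes), 0 to 1 for ligature against none (averaged) (0.123% to 1.52% of all genes), 1 to 2 for CCL19-KI against WT, ND, unligatured (1.56% to 27.1% of all genes), 0 to 1 for CCL19-KI against WT, 60% HFD, unligatured (3% to 17.5% of all genes), 0 to 1 for ligature against none, WT, ND (0.449% to 8.92% of all genes). The averaged differences that changed sign then ran as follows: *Pdgfrb* -0.034 to 0.12, *Dpp4* -0.12 to 0.017, *Pi16* -0.033 to 0.21, *Icam1* -0.15 to 0.0034, *Ly6a* -0.15 to 0.014 (40% HFD against ND), *Pdgfra* -0.23 to 0.048, *Ly6a* -0.079 to 0.12 (60% HFD against ND), *Pdgfra* -0.032 to 0.24, *Ly6a* -0.026 to 0.20, *Cd34* -0.098 to 0.14, *Cd55* -0.035 to 0.16, *Clec11a* -0.16 to 0.037 (60% HFD against 40% HFD), *Pdgfra* -0.0080 to 0.18, *Cd55* -0.14 to 0.010, *Clec11a* -0.0027 to 0.16 (CCL19-KI against WT), *Dpp4* -0.025 to 0.069, *Pi16* -0.13 to 0.086, *Icam1* -0.058 to 0.057, *Cd55* -0.087 to 0.065 (ligature). The cause of these changes was not tested, beyond the fewer libraries or genes of some fits. For sample quality weights limma reported that the weights did not reach their convergence tolerance. The replicate block changed no call of the 10 genes: *Dpp4* had adjusted p of 0.00788, 0.00924 and 0.0138 with the block, and the replicate numbers did not pair the samples. Summing rows of 1 symbol did not apply, since each gene had 1 row. The lowest value of the 10 genes in any library, 3.13 CPM, lay above 0.250 CPM, the most that a count of 0 allows in any library. How much of the spread is counting error was not tested.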
